A study of Mus musculus with 24 samples.

Results

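The 34 genes described here encode the tricarboxylic acid (TCA) cycle, the enzyme that makes itaconate, and the routes by which carbon enters the cycle from pyruvate, malate and glutamine or leaves it as citrate. They were taken by name from the arrays: 35 gene names were listed, of which Irg1 and Acod1 are the same gene, and the 34 genes were all among the 25955 genes that could be tested. Expression was measured on 24 one-colour Agilent mouse arrays, each hybridised with RNA from 1 culture of bone marrow-derived macrophages, macrophages grown from marrow for 6 days in 20 ng/ml M-CSF. The 6 groups of 4 biological replicates combined 2 genotypes with 3 activation states. The controls, called WT here, carried the floxed Slc2a1 allele (Slc2a1 fl/fl) without Cre. The Slc2a1M-/- cells, called KO here, carried the same floxed allele with LysM-Cre, a Cre recombinase placed in the Lyz2 gene and active in myeloid cells. Slc2a1 encodes the glucose transporter GLUT1, so the KO label denotes loss of GLUT1 in the myeloid lineage. M0 cells were left untreated, M1 cells received 5 ng/ml LPS with 10 ng/ml IFN-gamma, and M2 cells received 10 ng/ml IL-4, each for 24 h. The age and sex of the mice were not given in the sources used here.

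In the TCA cycle, acetyl-CoA joins oxaloacetate to form citrate, which is oxidised through isocitrate, 2-oxoglutarate, succinate, fumarate and malate back to oxaloacetate. Carbon removed from the cycle is replaced by anaplerosis, chiefly by carboxylation of pyruvate and by entry of glutamine carbon as 2-oxoglutarate. In macrophages given LPS, the cycle is known to be interrupted after citrate and at succinate, and cis-aconitate, an intermediate between citrate and isocitrate, is decarboxylated to itaconate, which inhibits succinate dehydrogenase.

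Promoter sequences are shown for 3 members whose levels the results turn on: Acod1, which makes itaconate and rose the most in M1 cells, and Pck2 and Got1, whose KO levels in M1 cells stood furthest above the WT levels. Each is the 250 bases before the transcription start in RefSeq's GRCm38.p6 annotation, written 5′ to 3′ on the gene's strand, with the letters of a searched motif in capitals.
Acod1: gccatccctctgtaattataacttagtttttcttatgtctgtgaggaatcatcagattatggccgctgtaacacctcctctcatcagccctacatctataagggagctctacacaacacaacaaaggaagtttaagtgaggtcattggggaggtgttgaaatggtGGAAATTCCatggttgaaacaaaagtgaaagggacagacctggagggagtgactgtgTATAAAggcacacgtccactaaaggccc
Pck2: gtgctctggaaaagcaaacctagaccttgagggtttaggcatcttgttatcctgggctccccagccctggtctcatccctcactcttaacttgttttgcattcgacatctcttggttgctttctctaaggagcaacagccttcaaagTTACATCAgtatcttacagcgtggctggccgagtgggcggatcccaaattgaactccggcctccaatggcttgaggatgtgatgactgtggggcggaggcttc
Got1: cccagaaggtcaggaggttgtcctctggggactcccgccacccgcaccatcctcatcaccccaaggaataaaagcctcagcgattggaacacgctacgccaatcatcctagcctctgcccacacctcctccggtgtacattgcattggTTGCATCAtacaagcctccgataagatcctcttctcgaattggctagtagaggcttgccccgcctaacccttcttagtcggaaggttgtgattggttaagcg
The Acod1 window (chr14:103046762-103047011, plus strand) holds a match to GGNNNTTCC, an NF-kappaB type motif, that begins 85 bases before the start, and TATAAA, the TATA box, 28 bases before it. The Pck2 window (chr14:55540016-55540265, plus strand) and the Got1 window (chr19:43524606-43524855, minus strand) each hold 1 match to TGATGNAA, the C/EBP-ATF response element type, on the opposite strand, 103 and 102 bases before the start. Motifs were searched on both strands in the 31 members present in the promoter table and in all 32851 promoters of it, which belong to 27025 genes. A gene was counted if any of its promoters held a match. TGATGNAA lay in 2 of 31 members, Pck2 and Got1, and in 3.91% of the 27025 genes. GGNNNTTCC lay in 8 of 31 members (Cs, Idh1, Suclg1, Suclg2, Sdhb, Mdh2, Pcx and Acod1) and in 17.6% of those genes. TATAAA lay in 2 of 31 (Acod1 and Got2) and in 14.3%. Further motifs searched were the ISRE type, GAAA and GAAA 2 bases apart, in Suclg2 and Glul and in 3.46% of those genes. The STAT6 type, TTC and GAA 4 bases apart, lay in Idh3b and Fh1 and in 6.76%. These matches describe letters in the windows, and the motifs were chosen with the expression values known.

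Each array held 62976 spots, 59305 of them gene spots. Of the gene spots 55.0% to 72.6% were above background in each array. An array's 75th percentile of signal, to which all levels are relative, lay between 1504 and 2973 units. That percentile was 1581 ± 88.9 (SD, n = 4) in KO M1 arrays and 2017 ± 253 in WT M1 arrays. All 34 members were above background on all 24 arrays. Levels are given as log2 of the signal relative to the array's 75th percentile, for the brightest probe of a gene, so they can be compared between arrays but not between genes. Differences are between means of groups of 4 arrays with their standard error, tested in limma across all genes and called at a Benjamini-Hochberg adjusted p under 0.05. Nothing states whether the 4 cultures of a group came from separate mice, so the p-values measure the spread between these cultures. All 8 macrophage markers were above background on every array. Slc2a1 itself differed between KO and WT by -0.33 ± 0.35 in M0, 0.25 ± 0.35 in M1 and -0.18 ± 0.35 in M2 cells, none of them called. The deleted exons were not given, so this probe may lie outside the deleted part and does not check the labels. Lyz2, in which the Cre lies, was 6.34-fold, 10.4-fold and 16.5-fold lower in KO than in WT cells in M0, M1 and M2 (limma adjusted p 0.0017, 2.2e-07 and 6.4e-06).

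Acod1 encodes aconitate decarboxylase, the enzyme that makes itaconate. Its single probe lies at chr14:103455171-103455231 (mm9), at base 1968 of the transcript. In untreated cells its level was 0.32, -1.43, -1.54 and -0.97 on the 4 WT arrays and 1.18, 1.35, -1.69 and -1.90 on the 4 KO arrays. In M1 cells it was 8.06, 7.79, 7.90 and 8.14 on WT arrays and 8.07, 7.91, 7.54 and 7.83 on KO arrays. Every M1 array thus lay far above every M0 array, the M1 arrays of both genotypes lay close together, and the KO and WT values overlapped in both states. The M1 response was 8.88 ± 0.70 on the log2 scale in WT cells, 471-fold (limma adjusted p 2.7e-09), and 8.10 ± 0.70 in KO cells, 275-fold (adjusted p 4.3e-09). The difference between the responses, -0.78 ± 1.00, was not called (adjusted p 0.63). In M1 cells KO differed from WT by -0.13, with a 95% interval of -1.6 to 1.34. The fit takes 1 variance for each gene over all 24 arrays, and the Acod1 arrays lay further apart within the M0 and M2 groups than within the M1 groups. In the bulk RNA used here, fewer cells of a kind and less RNA per cell cannot be told apart.

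In M2 cells Acod1 stood at 1.4, 0.34, 0.07 and 2.23 on WT arrays and at 1.77, -0.58, -0.76 and 1.23 on KO arrays. All 4 WT M2 arrays lay above 3 of the 4 WT M0 arrays, and the groups overlapped. The M2 response was 1.92 ± 0.70 in WT cells (adjusted p 0.074) and 0.68 ± 0.70 in KO cells (adjusted p 0.60), and neither was called. With the slide or the set of arrays as a block, the WT response was called (adjusted p 0.019 and 0.015). The members whose 6 group means were most like those of Acod1 were Slc25a1, the mitochondrial citrate carrier (Pearson r 0.91), Me1, the cytosolic malic enzyme (0.85), and Dlst, a subunit of the 2-oxoglutarate dehydrogenase complex (0.82). These are descriptions over 6 group means that share the large step between M1 and the other states.

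**Figure D1:**
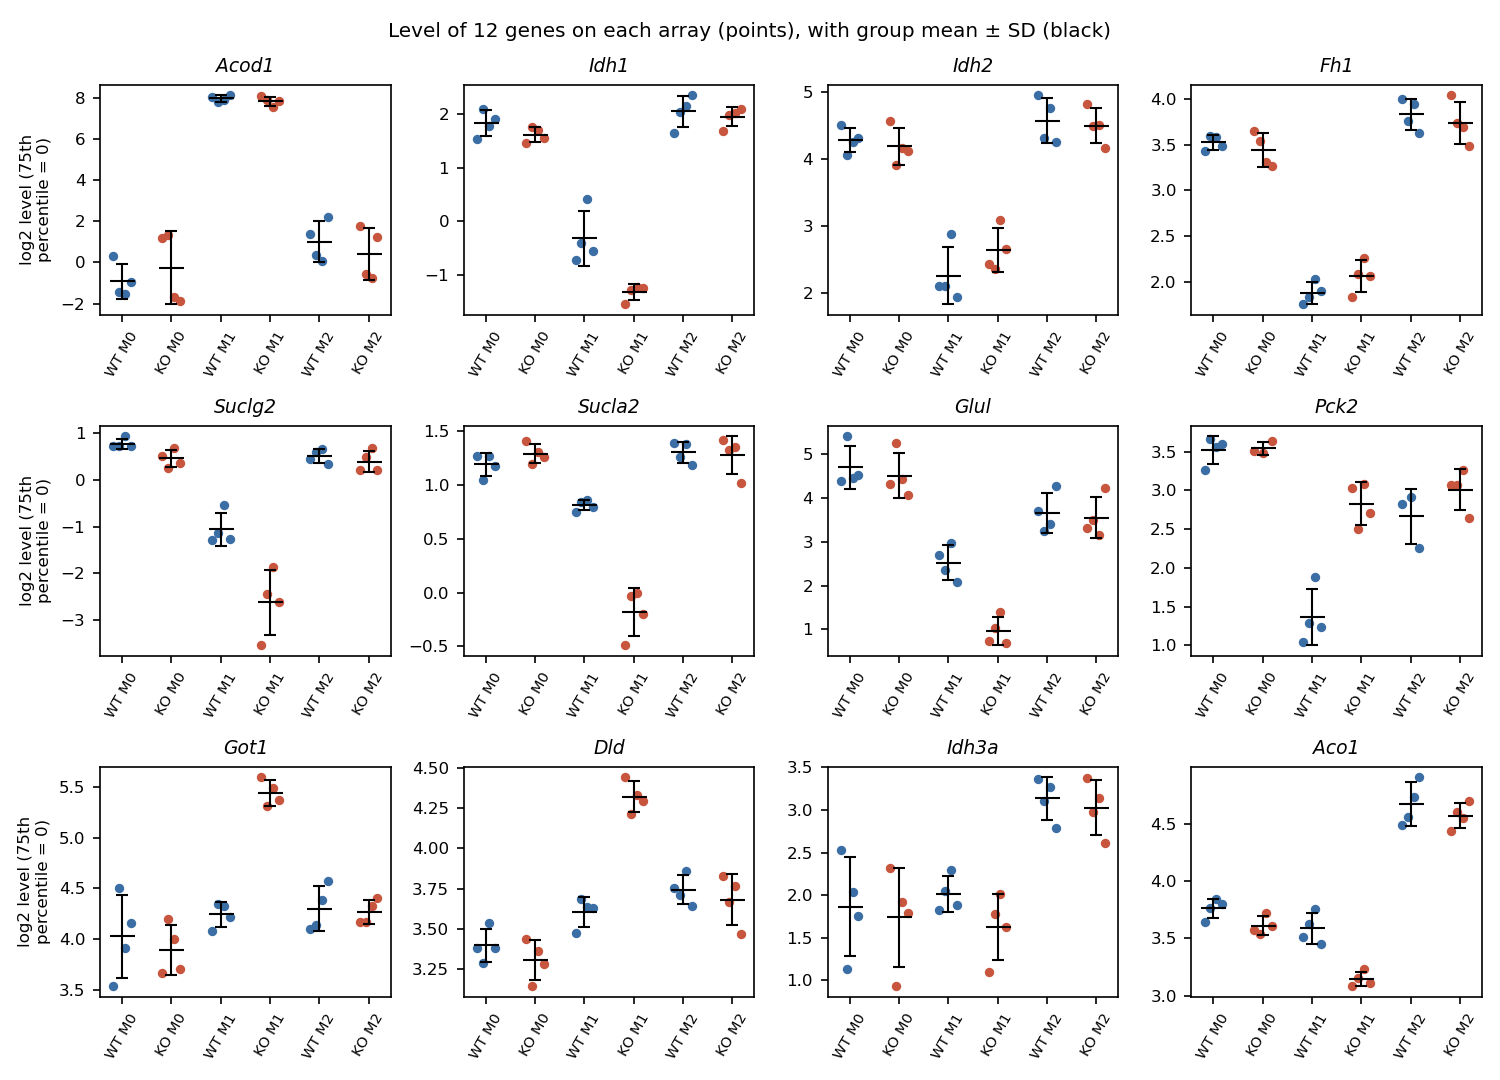
Level of 12 members on each of the 24 arrays (y axis, log2 of signal relative to the array's 75th percentile; x axis, group). Points are arrays and black marks the mean ± SD of 4 arrays, or 3 where a value was missing. Acod1 stands near 8 in both M1 groups; Idh1, Suclg2 and Glul are lowest in KO M1; Pck2 is lowest in WT M1; Idh3a and Aco1 are highest in the M2 groups.

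The M1 state moved members in both directions in WT cells. Of the 34 members 10 rose and 11 fell against M0, 61.8% called, where 47.8% of all genes were called, 25.9% upwards and 21.9% downwards. The median change was 0.10 over the members and 0.04 over all genes, and with quantile normalization, where the members' median was -0.14, 6 members rose. In the section from citrate to 2-oxoglutarate 3 of 7 members fell and none rose. Idh1, the cytosolic NADP-dependent isocitrate dehydrogenase, had levels of 1.54, 2.1, 1.77 and 1.92 on the WT M0 arrays and of -0.73, -0.40, 0.41 and -0.56 on the WT M1 arrays. All M1 values lay below all M0 values, a change of -2.15 ± 0.20 or 4.45-fold (adjusted p 2.0e-08). Idh2, its mitochondrial NADP-dependent counterpart, went from 4.5, 4.07, 4.26 and 4.32 to 2.11, 2.1, 2.88 and 1.94, again with no overlap, a change of -2.03 ± 0.22 or 4.08-fold (adjusted p 1.6e-07). Idh3g, a regulatory subunit of the NAD-dependent enzyme of the cycle, fell 2.33-fold (-1.22 ± 0.11, adjusted p 2.4e-08). Its partners Idh3a, the catalytic subunit, and Idh3b were not called (0.15 and -0.01), nor were citrate synthase, Cs (0.18), and the cytosolic aconitase Aco1, which doubles as an iron-responsive RNA-binding protein (-0.17).

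From 2-oxoglutarate to succinate, both subunits that set the nucleotide made by succinyl-CoA synthetase fell in WT M1 cells. Suclg2, the GTP-forming beta subunit, had levels of 0.73, 0.73, 0.94 and 0.72 in M0 and of -1.29, -1.13, -0.54 and -1.27 in M1 cells. These groups did not overlap, and the change was -1.84 ± 0.24 or 3.57-fold (adjusted p 2.5e-06). Sucla2, the ATP-forming beta subunit, fell by 0.38 (adjusted p 0.0062), while the shared alpha subunit Suclg1 was at -0.04 and not called. Ogdh and Dlst, the first and second components of the 2-oxoglutarate dehydrogenase complex, rose by 0.35 and 0.41, calls lost with quantile normalization, and Dld, the third component, was at 0.21 (adjusted p 0.079). Of the steps from succinate to oxaloacetate, fumarate hydratase, Fh1, fell 3.14-fold (-1.65 ± 0.13, adjusted p 1.7e-09) and cytosolic malate dehydrogenase, Mdh1, fell by 0.58. Mitochondrial malate dehydrogenase, Mdh2, rose by 0.64, and the succinate dehydrogenase subunits Sdhb, the iron-sulfur subunit, and Sdhd, a membrane anchor, rose by 0.48 and 0.59, with Sdha, the flavoprotein subunit, at -0.19 and Sdhc, the other membrane anchor, at 0.20 (not called).

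Of the enzymes that move carbon between the cycle and pyruvate, Pck2, the mitochondrial phosphoenolpyruvate carboxykinase, stood at 3.26, 3.66, 3.57 and 3.61 in WT M0 cells and at 1.05, 1.29, 1.89 and 1.23 in WT M1 cells. The groups were well apart, a change of -2.16 ± 0.19 or 4.47-fold (adjusted p 3.4e-08). Me1, which makes cytosolic NADPH from malate, stood at 1.39, -0.94, 0.12 and 0.14 in M0 and at 2.41, 1.73, 1.46 and 1.6 in M1 cells. Its M1 arrays were all above its M0 arrays, and it rose 3.08-fold (1.62 ± 0.56, adjusted p 0.020), a call that was lost without WT M1 replicate 1 or WT M0 replicate 2. The mitochondrial malic enzyme, Me2, rose by 0.50 (adjusted p 0.036), a call lost in 11 of 18 alternatives, among them quantile normalization, no filter, the mean of probes and the omission of the 4th set, of those arrays, of WT M1 replicate 2 or 4 or of WT M0 replicate 4. Pyruvate carboxylase, Pcx, was at 0.17 and not called. Slc25a1 and the oxoglutarate-malate carrier Slc25a11 rose by 0.64 and 0.27 (the Slc25a11 value was 0.014, and not called, with quantile normalization, and the call was also lost without the 4th set, without WT M0 replicate 3 and with the percentile over all spots), the dicarboxylate carrier Slc25a10 fell by 0.46, and ATP citrate lyase, Acly, which splits exported citrate into acetyl-CoA, was at 0.15 and not called.

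Among the genes of glutamate metabolism, Glul, glutamine synthetase, had levels of 4.39, 5.42, 4.46 and 4.53 in WT M0 and of 2.70, 2.34, 2.97 and 2.08 in WT M1 cells. The groups did not overlap, a change of -2.17 ± 0.30 or 4.51-fold (adjusted p 5.2e-06). Glutamate dehydrogenase, Glud1, fell by 0.79. The aspartate aminotransferases Got1, cytosolic, and Got2, mitochondrial, were at 0.22 and 0.05, and the mitochondrial alanine aminotransferase Gpt2 was at -0.25, none of them called.

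In KO cells the M1 state moved 10 members up and 14 down, 70.6% called, where 56.4% of all genes were called, 32.9% upwards and 23.5% downwards. The median change was -0.21 over the members and 0.25 over all genes, and with quantile normalization, where these medians were -0.49 and 0.04, 6 rose and 22 fell. Glul stood at 4.31, 5.25, 4.42 and 4.07 in KO M0 and at 0.74, 1.02, 1.4 and 0.69 in KO M1 cells, 11.7-fold lower (-3.55 ± 0.30, adjusted p 3.4e-09). The other Glul probes gave -1.34 and -1.30 in KO cells, against -1.97 and -1.95 in WT cells. Suclg2 stood at 0.52, 0.26, 0.69 and 0.37 in M0 and at -3.55, -2.46, -1.86 and -2.62 in M1 cells, 8.47-fold lower (-3.08 ± 0.24, adjusted p 9.7e-10). Idh1 stood at 1.46, 1.76, 1.70 and 1.56 in M0 and at -1.55, -1.28, -1.22 and -1.25 in M1 cells, 7.71-fold lower (-2.95 ± 0.20, adjusted p 1.0e-10). In these 3 genes every M1 array lay below every M0 array, as in WT cells. Idh2 went from 4.57, 3.92, 4.17 and 4.12 to 2.44, 2.37, 3.1 and 2.65, a 2.94-fold fall (-1.56 ± 0.22, adjusted p 3.2e-06), and Me1 from 1.01, -0.97, -0.04 and 0.35 to 2.62, 1.44, 0.61 and 1.92, a 2.95-fold rise (1.56 ± 0.56, adjusted p 0.021). The Idh2 groups did not overlap, whereas 1 of the KO M0 arrays lay above 1 of the KO M1 arrays for Me1, whose call was lost without KO M1 replicate 1 or 4 or KO M0 replicate 2.

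The other KO calls spread over all sections of the pathway. Fh1 fell 2.61-fold (-1.39 ± 0.13, adjusted p 8.6e-09), and Sucla2 and Glud1 fell 2.78-fold and 2.54-fold. Slc25a10, Idh3g, Pck2, Mdh1, Got2, Aco1 and Suclg1 fell by 0.42 to 0.96. Got1 rose 2.93-fold, Pcx 2.1-fold and Dld 2.02-fold, and Mdh2 and Dlst rose by 0.89 and 0.83. Idh3b, Ogdh and Sdhb rose by 0.39, 0.35 and 0.29, and these 3 differences turned to -0.025, -0.089 and -0.42 with quantile normalization. Cs, Idh3a, Sdha, Sdhc, Acly and Gpt2 were called in neither genotype, and Sdhd, Me2, Slc25a1 and Slc25a11 were not called in KO cells.

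**Figure D2:**
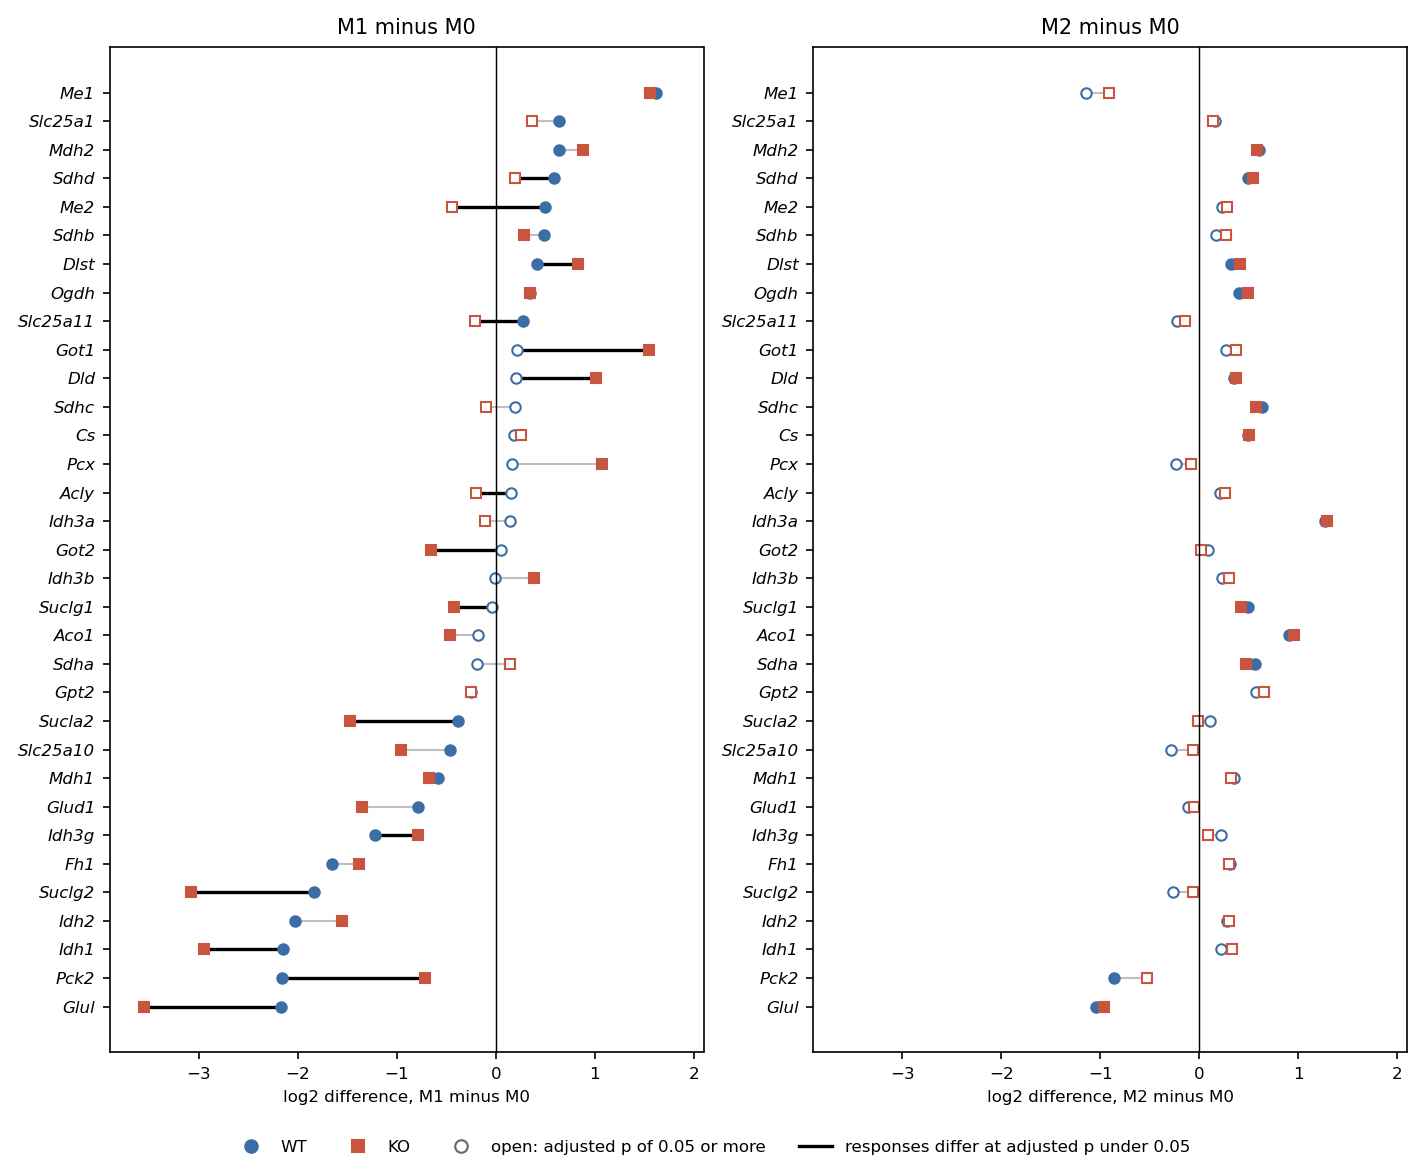
Change from M0 in 33 members (Acod1 left out for its size), M1 minus M0 on the left and M2 minus M0 on the right, in log2 units. Circles are WT and squares KO; a black line joins the 15 members whose M1 responses differed between genotypes at adjusted p under 0.05. The M1 responses of Pck2, Got1, Glul, Suclg2, Sucla2 and Me2 are the most separated, and the M2 responses of both genotypes lie close together.

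The comparison of KO with WT macrophages in the M1 state asks how far the pathway's transcripts differed between these genotypes in activated cells. KO cells also carried Cre in Lyz2, so the parts of Cre and of the Slc2a1 loss cannot be told apart. Of the 34 members 7 were higher and 15 lower in KO cells, 64.7% called, where 43.9% of all genes were called, 22.7% higher and 21.2% lower. Of the members, 6 were called with a difference of at least 2-fold, where 22.3% of all genes were. The median KO minus WT difference was -0.26 over the members and 0.13 over all genes. With quantile normalization the medians were -0.34 and -0.05, and with no filter on dim probes the median of all genes was 0.40. The share of called genes that were higher, 51.7%, was 42.1% with quantile normalization and 63.8% with no filter. All 22 called members had the same sign in each set of arrays that measured them, 4 sets or, for Sdhd, 3. The calls were made on these same arrays, so the equal signs are no separate support for them. Of the members, 21 did not overlap between KO and WT arrays, against 43.2% of all genes.

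Pck2 was 2.76-fold higher in KO M1 cells (1.47 ± 0.19, adjusted p 4.3e-06). Its KO M1 levels of 3.03, 2.50, 3.08 and 2.72 all lay above the WT M1 levels given above, and below the 3 measured KO M0 levels of 3.51, 3.48 and 3.64. Got1 was 2.3-fold higher (1.2 ± 0.17, adjusted p 4.9e-06), with levels of 5.60, 5.31, 5.49 and 5.37 in KO and of 4.08, 4.35, 4.33 and 4.21 in WT M1 cells. No array of either genotype overlapped the other for these 2 genes. Pcx, the anaplerotic pyruvate carboxylase, was 1.94-fold higher (0.96 ± 0.31, adjusted p 0.016), a call lost without KO M1 replicate 1 (0.69, adjusted p 0.076). Dld was 1.64-fold higher (0.72 ± 0.10, adjusted p 3.1e-06), Idh3g and Dlst were higher by 0.44 and 0.32, and Sdha was higher by 0.25 with overlapping arrays (adjusted p 0.045). The Sdha and Dlst calls were lost with quantile normalization (0.10 for each). Of the single M1 arrays left out, all but KO replicate 1 and WT replicate 3 ended the Sdha call, and KO replicate 3 ended that of Dlst.

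Suclg2 was 2.96-fold lower in KO M1 cells (-1.57 ± 0.24, adjusted p 1.8e-05), and Sucla2 was 1.99-fold lower (-0.99 ± 0.11, adjusted p 1.9e-07). The Sucla2 levels were -0.49, -0.03, -0.01 and -0.20 in KO and 0.75, 0.84, 0.86 and 0.80 in WT M1 cells, against 1.05 to 1.27 in WT M0 cells. On the probes used, both beta subunits, and by a smaller amount the alpha subunit Suclg1 (-0.45), were thus lower in KO M1 cells. The brighter other probes of Suclg2 gave -1.51 and -1.31. A dim second Sucla2 probe gave 1.89 and a second Suclg1 probe 0.14, and both calls were lost when the probes of a gene were averaged. Glul was 2.95-fold lower (-1.56 ± 0.30, adjusted p 2.4e-04) and Idh1 2.01-fold lower (-1.01 ± 0.20, adjusted p 2.6e-04). The other Glul probes gave 0.29 and 0.27. Me2, with levels of -0.05, 0.61, 0.61 and 0.75 in KO and of 1.53, 1.69, 1.52 and 1.68 in WT M1 cells, was 2.17-fold lower (-1.12 ± 0.19, adjusted p 5.6e-05). None of these genes had overlapping KO and WT arrays in the M1 state.

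Got2 was 1.80-fold lower, so the cytosolic and the mitochondrial aspartate aminotransferase lay on opposite sides of their WT levels. Glud1 was 1.53-fold lower. Of succinate dehydrogenase, Sdhb, Sdhc and Sdhd were lower by 0.35, 0.41 and 0.56. The flavoprotein subunit Sdha was called higher by 0.25, a call lost in 10 of 18 alternatives. The Sdhc call was lost without KO M1 replicate 2 or WT M1 replicate 3. Among the carriers and citrate users, Slc25a10, Slc25a11 and Acly were lower by 0.53, 0.45 and 0.42, and Slc25a1 was at -0.32 (not called). Aco1 was lower by 0.44. The Slc25a10 call was lost without the 4th set of arrays (-0.30).

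The remaining 12 members were not called between KO and WT M1 cells. Besides Acod1 and Slc25a1 these were Cs, Idh2, Idh3a, Idh3b, Ogdh, Fh1, Mdh1, Mdh2, Me1 and Gpt2, with differences from -0.38 for Idh3a to 0.38 for Idh2. For the probe used, the intervals were narrow for Cs (-0.31 to 0.19) and Mdh2 (-0.17 to 0.33). They were wide for Me1 (-1.31 to 1.01) and Gpt2 (-0.97 to 0.65). A second probe gave 0.35 for Cs and 0.73 for Gpt2, both outside these intervals, and -0.36 for Me1, inside it. With the replicate number as a block, which pairs WT and KO arrays within a state, all 22 calls stayed and Idh2, Idh3a, Idh3b and Slc25a1 were called as well, 26 of 34.

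**Figure D3:**
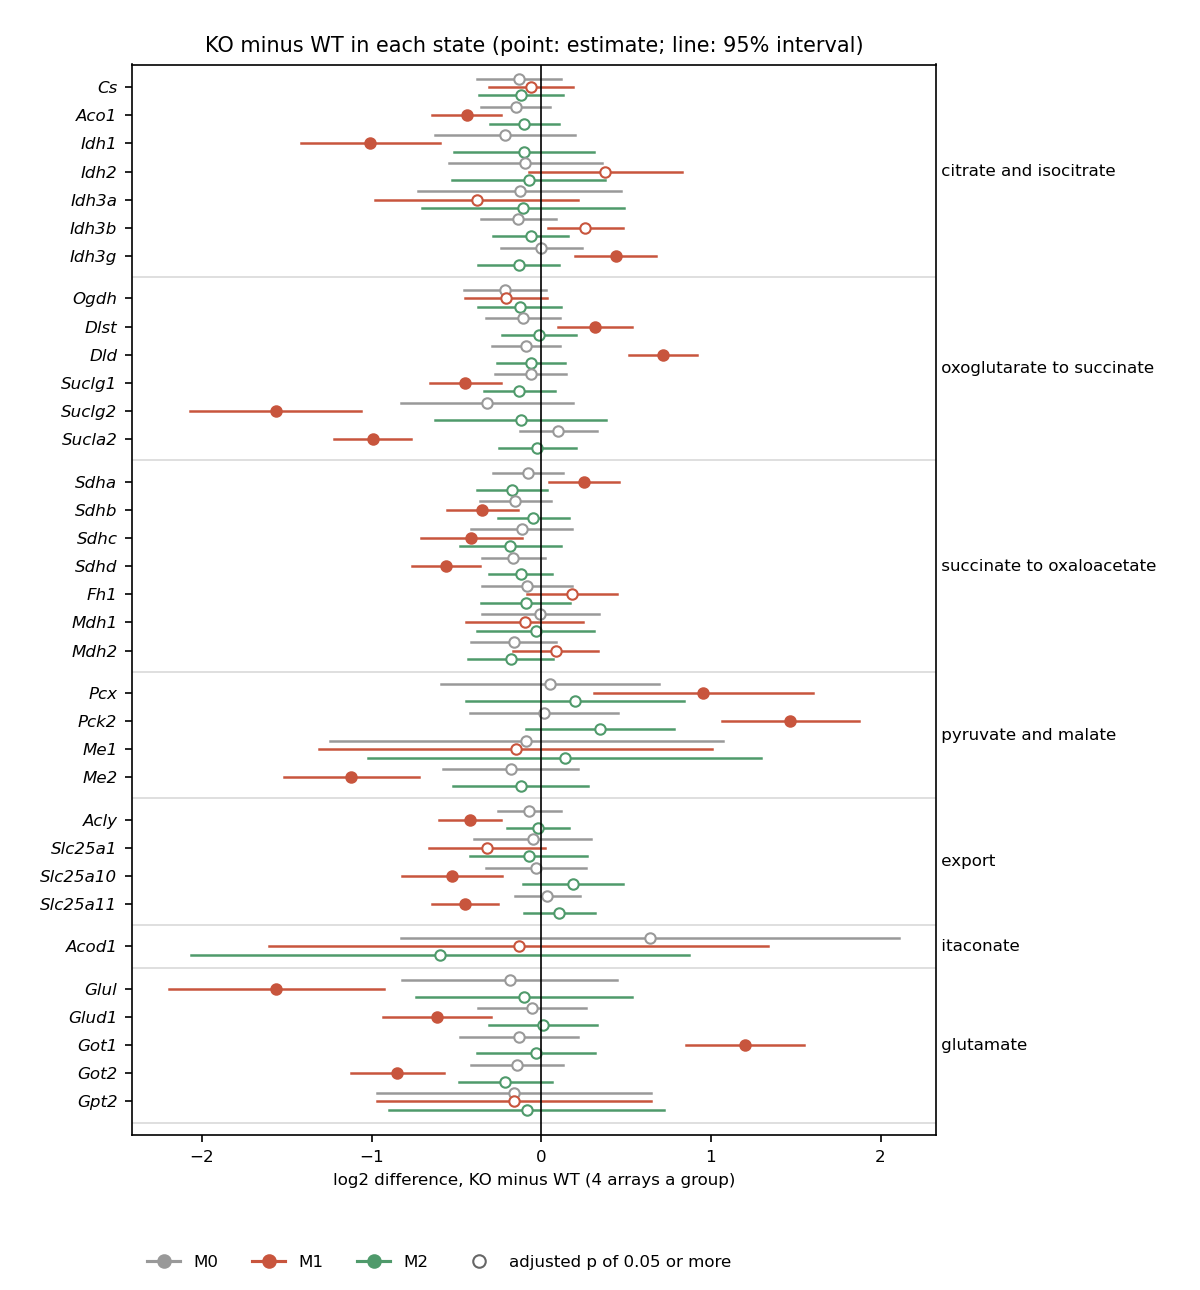
KO minus WT difference of the 34 members in log2 units, with 95% intervals, for M0 (grey), M1 (red) and M2 (green) cells; open symbols had an adjusted p of at least 0.05. Only M1 has filled symbols, 7 to the right of 0 and 15 to the left, while the M0 and M2 points lie near 0 with the widest intervals for Acod1 and Me1.

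Some neutrophil genes differed in the same comparison, in a share close to that of all genes. All 8 genes of a neutrophil list were above background on all 4 arrays of both M1 groups, none at background, and the log2 of their mean level ran from 1.35 to 3.23 over the WT M1 arrays and from 3.17 to 4.53 over the KO M1 arrays. In M0 cells the range was 3.57 to 5.01 in WT and 2.86 to 5.23 in KO cells. In the M1 state Camp, Ngp and S100a9 were higher in KO cells by 2.28, 2.36 and 2.26, Ly6g was lower (-2.75), and the other 4 were not called, so 4 of 8 were called where 43.9% of all genes were. The KO M1 arrays were also the dimmest, with the lowest 75th percentile of signal. The part of either in the differences of the members was not tested.

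Different probes of 1 gene did not always give the same KO minus WT difference in M1 cells. Among other probes above background on all 24 arrays, 20 belonged to called members, of which 14 had the same sign as the probe used and 1, of Dlst, was called the opposite way (-0.64, adjusted p 7.9e-05). Got1, Suclg2 and Idh1 were alike on most of their other probes, some of which were at background on some arrays. Those of Got1 gave 1.35 and 1.38. The brighter ones of Suclg2 gave -1.51 and -1.31 (above background on 23 and 19 arrays), and a dim one gave -0.25 (7 arrays). That of Idh1 gave -1.08 (20 arrays). The other Pck2 probe gave 0.73 (adjusted p 0.0019). Glul was not alike. Its brightest probe, at base 2718 of the transcript (chr1:155756765-155756824, mm9), gave -1.56, while those at bases 1062 and 408 gave 0.29 and 0.27 (adjusted p 0.53 and 0.58). All 3 Glul probes fell with M1 in both genotypes, by 1.95 to 2.17 in WT cells and by 1.3 to 3.55 in KO cells. The other Me2 probes gave 0.18 and 0.25 (not called) and a dim Sucla2 probe, above background on 14 of 24 arrays, gave 1.89 (adjusted p 2.2e-04). The Idh3g probe next in brightness gave 0.19 and a much dimmer probe gave 2.13 (adjusted p 1.4e-05), where the probe used gave 0.44. When the probes of a gene were averaged, 15 of the 22 calls stayed. Those of Dlst, Glud1, Glul, Me2, Pck2, Suclg1 and Sucla2 were lost, and Sucla2 turned to 0.45 (adjusted p 0.098).

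**Figure D4:**
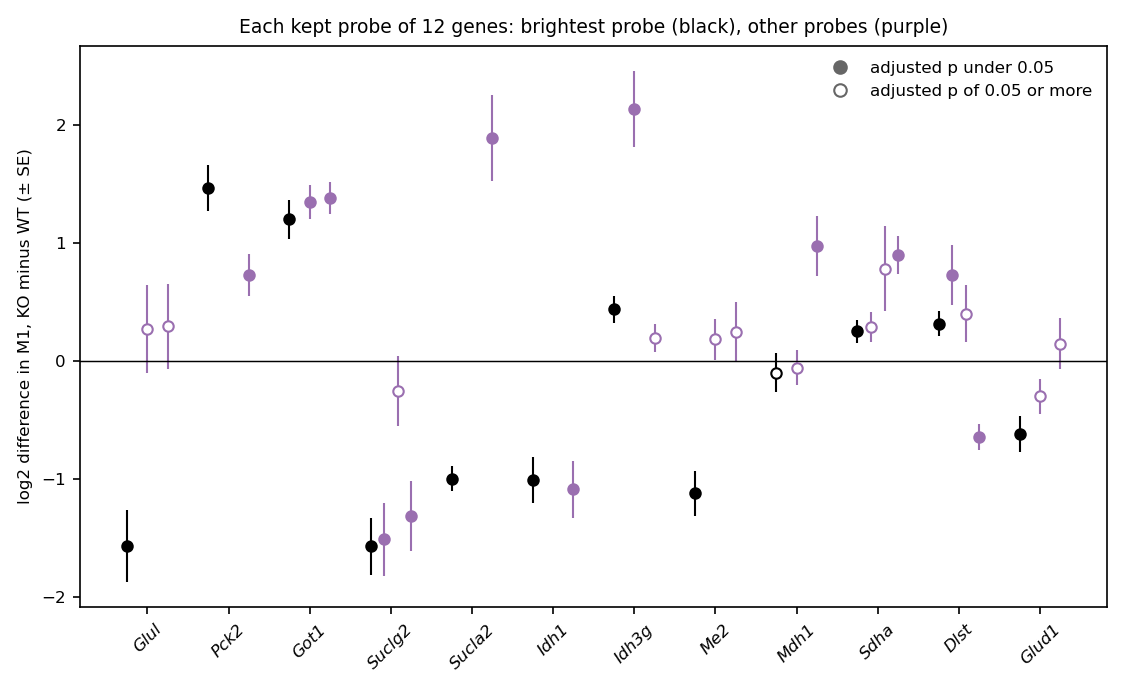
KO minus WT difference in M1 cells (log2, ± SE) for every kept probe of 12 members with more than 1 probe; black is the brightest probe, which stands for the gene, and purple the others. The probes of Got1 and Idh1 lie together, and those of Glul, Sucla2, Me2 and Idh3g are spread apart.

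The M1 responses themselves differed between genotypes in 15 of 34 members, 44.1%, where 29.8% of all genes were called, 15% with the more positive response in KO cells and 14.8% with the more negative. For 5 members the KO response was the more positive one. Pck2 fell in both genotypes, by 2.16 in WT and by 0.71 in KO cells, a difference of 1.45 ± 0.28 (adjusted p 5.9e-04). Got1 rose in KO cells (1.55) and was not called in WT cells (0.22), a difference of 1.33 ± 0.24 (adjusted p 1.7e-04). Dld followed the same pattern with 1.02 and 0.21, a difference of 0.81 ± 0.14 (adjusted p 9.8e-05). Idh3g fell less in KO (-0.79) than in WT cells (-1.22), and Dlst rose more (0.83 and 0.41).

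For the other 10 members the KO response was the more negative one. Glul, Suclg2 and Idh1 fell further in KO than in WT cells, with differences of -1.38 ± 0.43, -1.25 ± 0.34 and -0.79 ± 0.28 (adjusted p 0.018, 0.0079 and 0.036). For Glul this rests on the brightest probe, since the other 2 gave differences of 0.63 and 0.65. Sucla2 fell by 1.47 in KO and by 0.38 in WT cells, a difference of -1.09 ± 0.15 (adjusted p 1.2e-05), which turned to 0.64 when its probes were averaged. Me2 rose in WT cells and stood at -0.44 in KO cells, a difference of -0.94 ± 0.27 (adjusted p 0.011). Got2 fell in KO cells (-0.66) and was not called in WT cells (0.05), a difference of -0.71 ± 0.18 (adjusted p 0.0057). Slc25a11, Sdhd, Suclg1 and Acly had differences of -0.48, -0.39, -0.39 and -0.35. All 15 differences had the same sign in each set that measured them, 4 sets or, for Pck2 and Sdhd, 3. They were called on these same arrays, so the equal signs describe them and are no separate support. The differences of Pck2, Got1, Dld, Glul, Suclg2, Sucla2, Me2, Got2 and Slc25a11 were called whichever single array was left out. Those of Acly, Dlst, Idh1, Idh3g, Sdhd and Suclg1 were each lost without some arrays. With the probes of a gene averaged, 7 of the 15 calls stayed, and those of Pck2 (1.5, adjusted p 0.13), Glul (-0.032, adjusted p 0.97), Me2 (-0.046, adjusted p 0.91), Idh1 (-0.74, adjusted p 0.079), Sucla2, Dlst, Suclg1 and Acly were lost. With the replicate number within a state as a block, which pairs WT and KO arrays but not M0 and M1 arrays, 22 members were called, the 15 above and Aco1, Glud1, Idh2, Idh3b, Pcx, Sdha and Sdhc. With the set as a block, which joins arrays across states, 19 were called, the 15 above and Glud1, Idh3b, Pcx and Sdha.

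With IL-4 most of the members that changed rose. In WT M2 cells 11 members rose and 2 fell against M0, 38.2% called, where 15.1% of all genes were called, 6.26% upwards and 8.83% downwards. In KO M2 cells 11 rose and 1 fell, 35.3% called, against 13% of all genes, 6.8% upwards and 6.19% downwards. The median change was 0.25 in WT and 0.30 in KO cells, and over all genes -0.09 and -0.06. The 11 that rose were the same genes in both genotypes: Cs, Aco1 and Idh3a of the citrate section, Ogdh, Dlst, Dld and Suclg1 of the oxoglutarate section, and Sdha, Sdhc, Sdhd and Mdh2 of the succinate section. No member of pyruvate and malate metabolism, export or glutamate metabolism was called higher. Gpt2 was at 0.58 in WT and 0.65 in KO cells and Me1 at -1.14 and -0.92, none of them called. With the set as a block Me1 was called in both genotypes, and Acly and Got1 in KO cells.

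Idh3a, the catalytic subunit of the NAD-dependent isocitrate dehydrogenase, had levels of 2.53, 1.13, 2.03 and 1.76 in WT M0 and of 3.37, 3.11, 3.27 and 2.79 in WT M2 cells. The KO levels were 2.32, 0.93, 1.92 and 1.79 in M0 and 3.38, 2.98, 3.14 and 2.61 in M2 cells. In each genotype every M2 array lay above every M0 array, and the rise was 2.41-fold in WT (1.27 ± 0.29, adjusted p 0.0041) and 2.45-fold in KO cells (1.29 ± 0.29, adjusted p 0.0043). Aco1 rose 1.88-fold and 1.94-fold (adjusted p 1.7e-06 and 1.1e-06), and the other 9 rose by 0.32 to 0.64 in WT and by 0.38 to 0.58 in KO cells. Glul fell, from the M0 levels given above to 3.69, 3.24, 3.41 and 4.27 in WT (2.07-fold, adjusted p 0.023) and to 3.33, 3.49, 3.17 and 4.23 in KO M2 cells (1.95-fold, adjusted p 0.041). WT M2 replicate 4 and KO M2 replicate 4 were the highest of their groups, and the WT groups did not overlap while the KO groups did. The KO call of Glul was lost without any 1 of KO M0 replicates 1 to 3 or KO M2 replicates 1 to 3. Pck2 fell 1.81-fold in WT cells (adjusted p 0.0080) and was at -0.53 in KO cells (adjusted p 0.11). The WT call of Dlst (0.32) was lost in 12 of 18 alternatives, among them quantile normalization, no filter and the omission of any single WT M0 array or of WT M2 replicate 1 or 3. Without WT M0 replicate 2 or WT M2 replicate 3, the WT calls dropped from 13 to 9, with Dld, Dlst, Glul and Ogdh lost.

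No member was called between KO and WT cells in M0 or in M2, nor in the difference of the M2 responses. In each of these 3 comparisons limma called 0 of 34 members, and 0 members had an unadjusted p under 0.05 in the unpaired fit. With the replicate number within a state as a block, which pairs KO and WT arrays, 0 were called, and 2 of 34 in M0 (Mdh2 and Suclg2, both lower, where 7.91% of all genes were under it) and 5 of 34 in M2 (Pck2 higher, Got2, Mdh2, Sdha and Sdhc lower, where 12.4% were) had an unadjusted p under 0.05. Of 33 members measured in all 4 sets in M0, 13 were lower in KO in every set and 1, Sucla2, was higher, where 12.3% of all genes were lower and 8.69% higher in every set. In M2, 6 of 32 members measured in all 4 sets were lower in KO in every set and 0 were higher. For all genes these shares in M2 were 6.92% lower and 12.7% higher. Over all genes 0.0539% were called in M0, 0.0424% in M2 and 0% for the difference of the M2 response, with 822, 1150 and 256 of 25955 genes at an unadjusted p under 0.05. The M0 differences ran from -0.32 for Suclg2 to 0.10 for Sucla2 and 0.64 ± 0.70 for Acod1. The Acod1 difference turned to -0.070 without the 4th set of arrays. Suclg2 and Ogdh had all 4 KO M0 arrays below all 4 WT M0 arrays, while 1.44% of all genes had that order. The M2 differences ran from -0.60 for Acod1 and -0.21 for Got2 to 0.35 for Pck2, and no member's arrays were apart in M2, where 2.42% of all genes were. Pck2 and Got1, the members furthest above WT in KO M1 cells, differed by 0.02 ± 0.21 and -0.13 ± 0.17 in M0 and by 0.35 ± 0.21 and -0.03 ± 0.17 in M2 cells.

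A further 43 genes of the pathway that are not among the 34, such as pyruvate dehydrogenase, its kinases and the amino acid carriers, gave 39 that could be tested. Between KO and WT M1 cells 9 of the 39 were higher and 13 lower, 56.4% called, where 43.9% of all genes were. Acss1, which makes mitochondrial acetyl-CoA from acetate, was higher by 2.06, the glutamine transporter Slc38a2 by 1.75, Oat, which links ornithine to glutamate, by 1.69, and Pdhb, a pyruvate dehydrogenase subunit, by 1.17. The pyruvate dehydrogenase kinases Pdk2 and Pdk1 were lower (-1.88 and -1.17), as were D2hgdh, which oxidises D-2-hydroxyglutarate (-1.63), and the cytosolic alanine aminotransferase Gpt (-1.12). In the M1 response 10 rose and 13 fell in WT cells, 59% called against 47.8% of all genes, and 14 rose and 12 fell in KO cells, 66.7% against 56.4%. Among them were the mitochondrial glutamate carriers Slc25a22 (2.28 and 2.38) and Slc25a12 (1.91 and 1.52) and the glutamine transporter Slc1a5 (-1.77 and -2.23). In the M2 response 10 rose and 1 fell in each genotype, 28.2% called, against 15.1% of all genes in WT and 13% in KO cells, with Slc1a5 up by 1.01 in WT and 1.16 in KO cells. None was called between KO and WT cells in M0 or M2.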

How the data were processed

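Per the labels, RNA of 24 macrophage cultures was hybridised to one-colour Agilent arrays, and the authors deposited scanner files whose headers name Feature Extraction 10.7.3.1, while the submitters' processing notes name version 9.1. The intensity used is the deposited processed signal, already background-corrected by that software per the file headers. Of 59305 gene spots on each array, spots of 1 probe were averaged to 56605 probes, and 39036 probes above background on at least 4 arrays were kept. Each array's log2 intensity had its 75th percentile subtracted, and a gene was represented by its brightest probe, with 32994 probes named through RefSeq. Group means of all 24 arrays were fitted in limma 3.58.1 (R 4.3.3) over 25955 genes with Benjamini-Hochberg adjustment, called under 0.05, and 2 genotypes in 3 states gave 9 comparisons. The array number limits the precision. In 4 group and gene pairs 1 array had no usable spot, and the mean there is of 3 arrays: Pck2 in KO M0 replicate 3 and WT M2 replicate 2, Sdhd in WT M1 replicate 3 and Slc25a11 in WT M2 replicate 1.

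The 3 slides held 4 sets of the 6 groups. The 4th set was taken as the 6 arrays on which no Y-linked gene was above background. Within each state, WT and KO arrays of the same number deviated together (correlations 0.17 to 0.85), and the number was taken to pair them there. The array of the same number was the closest match for 2, 3 and 2 of 4 arrays in M0, M1 and M2. Arrays of other numbers correlated at up to 0.40, 0.25 and 0.26, so this pairing is uncertain. Across states the number does not pair arrays (-0.46 to 0.56). Values per array are given for called members with a log2 difference of at least 1 (at most 6 per comparison, largest first), and for these genes also where another comparison describes them, fold, error and p for at most 12 and for Acod1, and ranges or counts for the rest. The members, gene lists and motifs were chosen with earlier results of these data known. Alternatives were another background correction (normexp), quantile normalization, no filter, the mean of probes, slide, set or replicate number as a block, the 4th set left out, only the groups compared, each array left out, and, added after seeing the data, the percentile over all spots. A further gene and a further motif are not reported here. The script was tested on simulated data.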

Additional observations from a re-analysis of the deposited data

Results flagged for a closer look

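In 200 groups of 4 arrays of a member, 2 held an array far from the other 3 by Dixon's criterion, where chance gives about 1 in 20. Suclg2 stood at 0.9436 on WT M0 replicate 3, with the other 3 arrays at 0.7213 to 0.7274. Glul stood at 5.418 on WT M0 replicate 2, with the others at 4.388 to 4.531. Left out, neither array changed the direction of the M1 response of its gene.

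The M1 response differed between KO and WT cells in 15 members by the interaction test in limma. The KO response was the more positive for Pck2 (1.45), Got1 (1.33), Dld (0.81), Idh3g (0.44) and Dlst (0.42). It was the more negative for Glul (-1.38), Suclg2 (-1.25), Sucla2 (-1.09), Me2 (-0.94), Idh1 (-0.79), Got2 (-0.71), Slc25a11 (-0.48), Sdhd (-0.39), Suclg1 (-0.39) and Acly (-0.35). The Glul value is that of the brightest probe, and its other probes gave 0.63 and 0.65.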

How the results depend on the processing

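Over the single-gene values of called members and Acod1 under all alternatives, 1984 kept direction and side of the threshold, 4 passed it, 191 no longer passed it and 9 turned sign; for what follows the cause was not tested. Turned signs with the mean of the probes of a gene were those of Sucla2 in KO minus WT M1 (0.45), in the KO M1 response (0.20) and in the difference of the M1 responses (0.64), and of Dlst in the WT M1 response (-0.031); with quantile normalization those of Idh3b (-0.025), Ogdh (-0.089) and Sdhb (-0.42) in the KO M1 response; without the 4th set those of Acod1 in KO minus WT M0 (-0.070) and in the difference of the M1 responses (0.012). Quantile normalization left 6 members higher in the WT M1 response, and 6 higher and 22 lower in the KO one. For KO minus WT M1, leaving out 1 array gave 5 to 9 higher and 14 to 16 lower. For the difference of the M1 responses, 3 members were higher with quantile normalization, with no filter or without the 4th set, 8 with the set as block, 9 with the replicate block and 3 to 7 with 1 array left out; 5 were lower with the mean of probes, 6 with the percentile over all spots and 7 to 11 with 1 array left out. For the M2 response of WT cells, 1 member was lower with the mean of probes, 0 lower and 4 higher with only the groups compared, and 1 to 2 lower with 1 array left out. For that of KO cells, 3 were lower with quantile normalization, 2 with the set as block, 0 with the mean of probes, the slide as block or the percentile over all spots, 0 lower and 7 higher with only the groups compared, and 0 to 1 lower with 1 array left out. The replicate block, whose numbers do not pair arrays across states, added Acod1 and Me1 in the WT M2 response and Idh3b and Pck2 in the KO one, where it lost Glul, and added Cs and Slc25a1 in the KO M1 response; for KO minus WT M0 and M2 it called 0 members. Over all genes, KO minus WT M0 had 14 calls, and 22 with quantile normalization, 24 without the 4th set and 9 with only the groups compared; KO minus WT M2 had 11, and 28 with the set as block, 60 without the 4th set, 79 with the replicate block, 6 with only the groups compared and 6 to 7 without KO M2 replicate 2, WT M2 replicate 2 or WT M2 replicate 3; the WT M2 response had 3915, and 6519, 5873 and 2081 with the set as block, without the 4th set and with only the groups compared; the KO M2 response had 3371, and 6362 with no filter and 5913 with the set as block. No member was at background, so dim signal limits only the further probes.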
